A study of Homo sapiens with 12 samples.

Results

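Most DDX and DHX genes encode RNA helicases, enzymes that use ATP to open short RNA duplexes and to strip or reorder proteins on RNA. Genes were taken as members if their symbol starts with DDX or DHX followed by a number, without pseudogenes and antisense genes, and if at least 1 of their probes had a detection p under 0.01 on at least 3 of 12 arrays. This gave 45 genes (31 DDX and 14 DHX) measured by 65 probes, of 10464 genes and 13735 probes that passed the same filter. The array carried 82 probes for 53 DDX and DHX genes, and no probe passed for DDX3Y, DDX4, DDX20, DDX25, DDX43, DDX53, DHX57 and DHX58. The arrays held 4 groups of HCT116 cells, an established colon cancer line, with 3 arrays each: ATF3-knockout (KO) cells with 1.5 µM camptothecin (CPT) for 4 h, KO cells with DMSO for 4 h, wild-type (WT) cells with CPT and WT cells with DMSO. CPT traps topoisomerase I on DNA, and ATF3 is a stress-induced transcription factor. All KO arrays came from cells with the same clone name, E11, in which a small stretch of exon 3 of ATF3 was targeted on both alleles. The questions were which helicase transcripts changed with CPT in each genotype, whether the genotypes differed, and whether DDX and DHX genes differed from each other.

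Most DDX proteins are DEAD-box helicases, which bind RNA, pry a short duplex apart and let go. Most DHX proteins are DEAH-box helicases, which pull single strands through the enzyme and so take apart larger assemblies such as the spliceosome. The human members serve nearly every step of RNA life, from ribosome assembly in the nucleolus through splicing and mRNA export to translation and decay. Several are partnered by proteins that switch on their ATPase, namely MIF4G-domain proteins for the DEAD-box group and G-patch proteins for the DEAH-box group.

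The arrays detected 13713 to 15639 probes under CPT and 15399 to 16823 under DMSO. Unscaled ATF3 signal was 289.8, 254.0 and 282.1 in KO cells with CPT, against 1123.3, 992.8 and 1713.8 in WT cells with CPT. It was 127.1, 117.0 and 130.9 in KO cells with DMSO, against 168.0, 156.8 and 390.4 in WT cells with DMSO, so KO was lower on every array in both settings and replicate 3 of the WT DMSO arrays stood above its fellows. The ATF3 difference was called under CPT (log2 change −2.41 ± 0.46, SE, adjusted p = 0.0331) and not under DMSO (−1.38 ± 0.46, adjusted p = 0.295), and where its probe lies relative to the targeted exon was not examined. Of 8 epithelial markers, EPCAM, CDH1, KRT8, KRT18, KRT19 and CDX2 were detected on all 12 arrays and VIL1 and LGALS4 on none. The summed unscaled signal of 6 markers of other cell types ran over 876.0 to 1055.4 in KO CPT arrays and 688.4 to 826.7 in KO DMSO arrays, and over 1029.5 to 1143.8 in WT CPT arrays and 766.9 to 937.9 in WT DMSO arrays. Among those markers PTPRC and PECAM1 were detected on 0 arrays, COL1A1 on 1, CD14 on 6, ALB on 11 and ACTA2 on 12. The part of these marker and detection differences in the results was not tested.

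With CPT, most helicase transcripts that passed the test fell. In KO cells 17 of 45 helicase genes fell and 1 rose, and in WT cells 21 fell and 2 rose (adjusted p under 0.05), while 27 genes in KO cells and 22 in WT cells were not called. Of the 21 WT falls, 2 (DDX6 and DDX60L) were of genes detected on DMSO arrays alone, which had passed the filter only through that group. DHX35, counted as a fall in both genotypes, was detected on 1 of 3 KO CPT arrays and on no WT CPT array. It too had passed only through DMSO arrays. Over all genes tested, 31.4% were called in KO cells (13.7% up and 17.8% down) and 31.2% in WT cells (12.8% up and 18.4% down). The median log2 change of the helicase genes was −0.35 in KO cells and −0.50 in WT cells, whereas the median over all genes was 0.03 in both genotypes. By probe, 22 of 65 helicase probes were called in KO cells, where 30.4% of all probes were, and 31 in WT cells, where 30.3% were. Those 31 include the probes of DDX6 and DDX60L and the dimmer probes of DDX42 and DDX52, all detected on DMSO arrays alone. The DHX35 probe and the dimmer DDX31 probe, called in both genotypes, were detected on few CPT arrays and had passed the filter only through DMSO arrays. The change was negative for 36 of the 45 genes in KO cells and for 37 in WT cells. CPT and DMSO arrays did not overlap for 27 helicase genes in KO cells, where 48.9% of all genes did not overlap, and for 26 in WT cells, where the share of all genes was 40.5%. In bulk RNA, less transcript in every cell cannot be told apart from fewer cells that carry it.

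The steepest fall was that of DDX10, a ribosome assembly helicase, at 13.3-fold in KO cells and 8.73-fold in WT cells, and the 1 gene that rose in both genotypes was DDX28, a mitochondrial ribosome assembly helicase. Of the genes that fell, 16 were shared, which is 94.1% of the 17 in KO cells and 76.2% of the 21 in WT cells. The 16 include DHX35, which had passed the filter only through DMSO arrays. The shared falls were not counted over all genes, so these shares cannot be called particular to helicases. DHX32 fell in KO cells and was not called in WT cells, whereas DDX1, DDX19A and DHX33 fell in WT cells and were not called in KO cells. DDX6 and DDX60L were also called in WT cells alone, with CPT signals below detection in both genotypes. None of these genes was called for the difference between the genotypes. Across the 45 genes the changes in KO and WT cells had a Pearson correlation of 0.949 (0.936 without DDX10), beside 0.930 across all genes. Genes are not independent replicates, and the value describes these arrays. With the replicate number as a block, 20 helicase genes fell and 3 rose in KO cells (DDX28, DDX41 and DDX51), and 23 fell and 3 rose in WT cells (DDX28, DDX41 and DHX16). In that fit 48.2% of all genes in KO cells and 48.9% in WT cells were called in either direction. Of all 10464 genes, 2542 fell and 2500 rose in KO cells, and 2642 fell and 2478 rose in WT cells. DDX19A and DDX6 were among the KO falls with the block, so which genes were called in WT cells alone depended on the fit.

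Scaling bears on the direction of the small changes. With each array scaled to its median in place of quantile normalization, the median change of all genes moved to −0.19 in KO cells and −0.30 in WT cells, and that of the helicase genes to −0.58 in KO cells and −0.74 in WT cells. Relative to all genes, the helicase median was −0.39 in KO cells and −0.44 in WT cells with median scaling, against −0.38 in KO cells and −0.53 in WT cells with quantile normalization. With median scaling no helicase probe was called up, and among all called probes the share that rose was 14.1% in KO cells and 7.81% in WT cells, against 43.3% in KO cells and 40.9% in WT cells with quantile normalization. With the authors' own normalized values, which were scaled in 2 sets, 12 helicase probes were called in KO cells and 15 in WT cells. Over all 13735 probes, 1472 were called with the authors' values in KO cells and 1480 in WT cells. With quantile normalization 4169 of all probes were called in KO cells and 4155 in WT cells. By gene, these values ended the calls of DDX3X, DDX28, DDX31, DDX39A, DDX47, DDX59, DHX29 and DHX32 in KO cells, and of DDX1, DDX3X, DDX6, DDX28, DDX39A, DDX41, DDX47, DDX59, DDX60L, DHX29, DHX33 and DHX36 in WT cells.

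**Figure D1:**
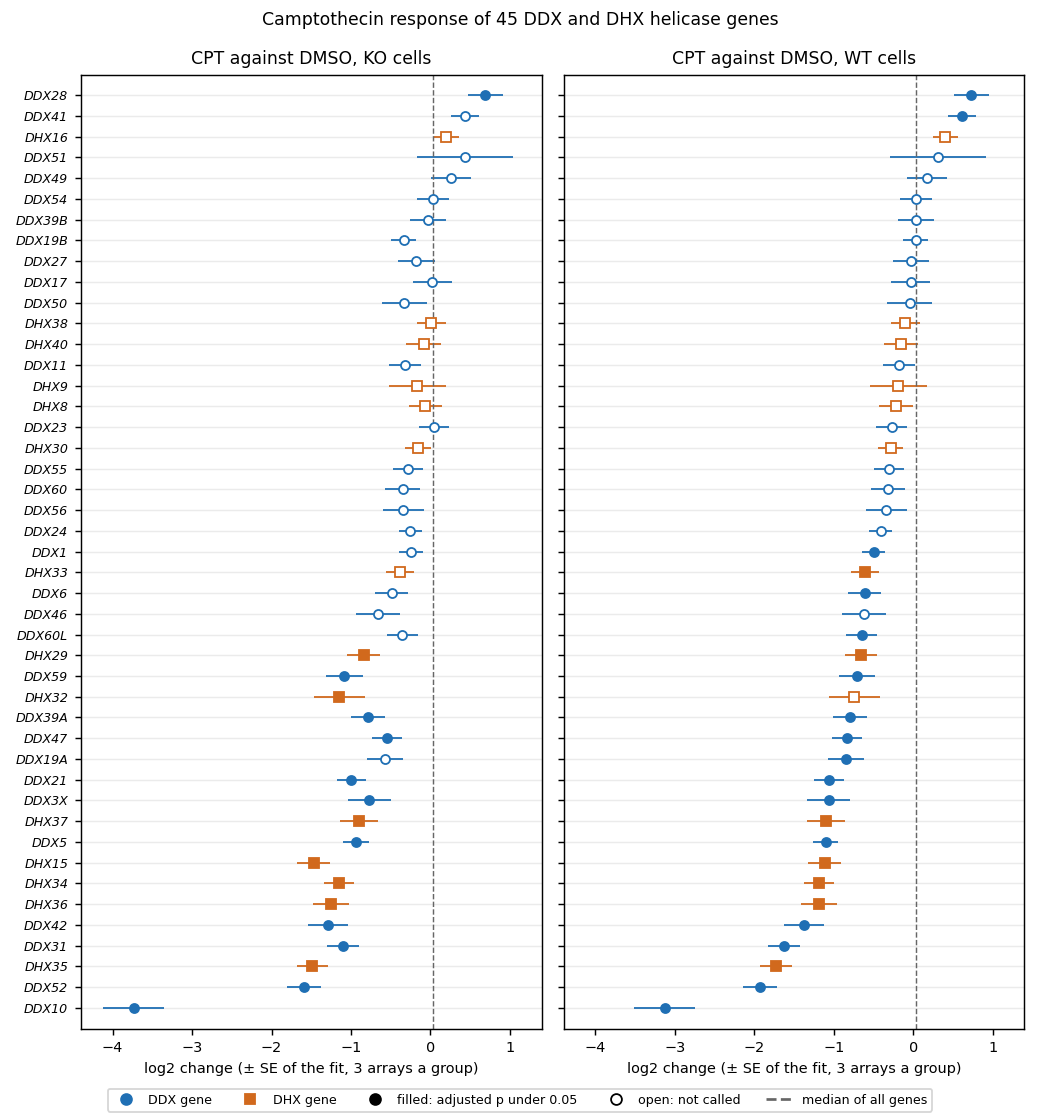
Log2 change with CPT against DMSO (x axis, ± SE) of each of 45 helicase genes (rows, ordered by the change in WT cells) in KO cells (left) and WT cells (right), with DDX genes as circles, DHX genes as squares, called genes filled and the median of all genes dashed. DDX10 lies at −3.74 in KO cells and −3.13 in WT cells, and DDX28 is filled to the right of the dashed line in both panels, joined by DDX41 in WT cells.

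Promoters were inspected for the cyclic AMP response element (CRE), the palindrome TGACGTCA, which ATF and CREB family factors can bind. RefSeq promoters (GRCh38.p14, the 250 bases before the gene's start) matched 42 of the 45 genes by symbol, with none for DDX49, DDX52 and DHX33. The full CRE was present in 5 of these 42 promoters (11.9%), those of DDX10, DDX19A, DDX28, DDX51 and DHX36, and in 1.77% of 27305 promoters of all genes. DDX10 and DHX36 fell in both genotypes, DDX19A fell in WT cells, DDX28 rose in both genotypes and DDX51 was not called without the block, so the element stood before helicase genes of either direction. The E-box CACGTG, also a palindrome, was present in 7 helicase promoters (16.7%) and in 6.49% of all promoters. The AP-1 element, TGACTCA or TGAGTCA, each the other's complement on the opposite strand, was present in 1 (2.38%), that of DHX15, and in 4.16% of all promoters. Of the other motifs searched, the CRE half-site TGACG was present in 40.5% of helicase promoters and 21.7% of all promoters. The GC box GGGCGG was present in 57.1% and 42.3%, CCAAT in 40.5% and 33%, and TGATGCAA in 0% and 0.82%. All promoters here include those of genes not detected on these arrays. A match describes these letters and is no evidence of binding. The promoters of DDX10, with 2 elements, of DHX36 and DDX19A, with 1 each before genes that fell, and of DDX28, with 1 before the gene that rose, are given 5′ to 3′ on the gene's strand with the CRE in capitals.
DDX10 (chr11:108664819-108665068, plus strand): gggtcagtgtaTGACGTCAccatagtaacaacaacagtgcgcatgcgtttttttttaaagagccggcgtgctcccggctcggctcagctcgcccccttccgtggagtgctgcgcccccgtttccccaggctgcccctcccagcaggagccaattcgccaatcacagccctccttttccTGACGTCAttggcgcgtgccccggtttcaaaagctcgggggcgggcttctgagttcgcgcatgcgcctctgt
DHX36 (chr3:154324488-154324737, minus strand): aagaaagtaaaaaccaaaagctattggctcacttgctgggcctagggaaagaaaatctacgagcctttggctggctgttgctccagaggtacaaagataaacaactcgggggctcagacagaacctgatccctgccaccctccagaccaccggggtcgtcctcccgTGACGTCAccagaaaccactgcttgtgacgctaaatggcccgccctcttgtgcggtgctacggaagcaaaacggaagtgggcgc
DDX19A (chr16:70346653-70346902, plus strand): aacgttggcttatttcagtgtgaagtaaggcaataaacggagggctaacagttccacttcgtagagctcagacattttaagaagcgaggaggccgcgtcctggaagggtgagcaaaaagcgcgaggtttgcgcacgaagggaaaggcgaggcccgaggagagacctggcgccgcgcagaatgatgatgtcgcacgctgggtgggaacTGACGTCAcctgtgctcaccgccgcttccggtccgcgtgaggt
DDX28 (chr16:68023233-68023482, minus strand): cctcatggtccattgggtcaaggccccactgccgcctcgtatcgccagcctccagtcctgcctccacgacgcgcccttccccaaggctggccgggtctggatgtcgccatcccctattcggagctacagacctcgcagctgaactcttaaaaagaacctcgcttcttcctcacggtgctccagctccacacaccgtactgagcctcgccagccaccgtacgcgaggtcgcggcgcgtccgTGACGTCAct
The elements of DDX10 began 239 and 72 bases before the start of the gene, that of DHX36 84 bases, that of DDX19A 43 bases and that of DDX28 10 bases before it. The median GC content was 62.4% over the helicase promoters and 58.0% over all promoters.

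Ribosome assembly was the largest role, with 15 genes measured, of which 6 fell in KO cells and 7 in WT cells (median −0.34 in KO cells and −0.41 in WT cells). Over all genes, 17.8% fell in KO cells and 18.4% in WT cells. DDX10, the counterpart of yeast Dbp4, acts on pre-rRNA of the small subunit. Its log2 signal was 5.33, 5.37 and 6.12 in KO cells with CPT, against 9.35, 9.44 and 9.22 in KO cells with DMSO. In WT cells it was 5.17, 5.86 and 7.15 with CPT, against 9.03, 9.37 and 9.15 with DMSO. Every CPT array lay far below every DMSO array of its genotype, with replicate 3 the least reduced in both, and the probe was detected on all 12 arrays. The log2 change was −3.74 ± 0.38 in KO cells (adjusted p = 3.76e-05) and −3.13 ± 0.38 in WT cells (adjusted p = 0.000133), and it stayed between −3.99 and −3.60 in KO cells and between −3.67 and −2.68 in WT cells when any array was left out.

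DDX52, the counterpart of yeast Rok1 in small subunit assembly, read 5.82, 6.05 and 6.06 in KO cells with CPT, against 7.54, 7.47 and 7.69 in KO cells with DMSO. The WT arrays read 5.67, 5.62 and 6.30 with CPT, against 7.47, 7.82 and 8.07 with DMSO. The groups were well apart in both genotypes, by −1.59 ± 0.21 in KO cells (3.01-fold, adjusted p = 0.000209) and −1.92 ± 0.21 in WT cells (3.80-fold, adjusted p = 7.04e-05). DDX31, a nucleolar helicase of large subunit assembly, read 6.21, 5.78 and 6.20 in KO cells with CPT, against 6.88, 7.30 and 7.31 in KO cells with DMSO. Its WT values were 6.00, 5.58 and 5.94 with CPT, against 7.21, 7.48 and 7.70 with DMSO. Again no CPT array reached a DMSO array, and the change was −1.10 ± 0.20 in KO cells (adjusted p = 0.00173) and −1.62 ± 0.20 in WT cells (adjusted p = 0.000149).

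DDX21, a nucleolar helicase that also binds RNA polymerase I and II genes, fell by 1.00 in KO cells (adjusted p = 0.00176) and by 1.06 in WT cells (adjusted p = 0.00127). DHX37, which releases U3 RNA from the small subunit precursor, fell by 0.90 in KO cells (adjusted p = 0.0141) and by 1.10 in WT cells (adjusted p = 0.0049), and its KO call ended without KO DMSO replicate 2 or 3 (adjusted p at most 0.0597). DDX47, the counterpart of yeast Rrp3, fell by 0.55 in KO cells (adjusted p = 0.0461) and by 0.84 in WT cells (adjusted p = 0.00615). Its KO call ended when any single array was left out other than KO CPT replicate 1 or WT CPT replicates 2 and 3, with an adjusted p of up to 0.163. DHX33, a nucleolar helicase, fell in WT cells (−0.61 ± 0.17, adjusted p = 0.0198), a call that ended without WT DMSO replicate 1 or 2 or WT CPT replicate 2 (adjusted p up to 0.0828), and had −0.38 in KO cells (adjusted p = 0.117). The other 8 genes of this role, DDX24, DDX27, DDX49, DDX50, DDX51, DDX54, DDX55 and DDX56, were not called in either genotype, and their log2 changes ran from −0.34 to 0.43 in KO cells and from −0.41 to 0.31 in WT cells. With the block DDX24 fell in WT cells (adjusted p = 0.0175) and DDX51 rose in KO cells (adjusted p = 0.0329).

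**Figure D2:**
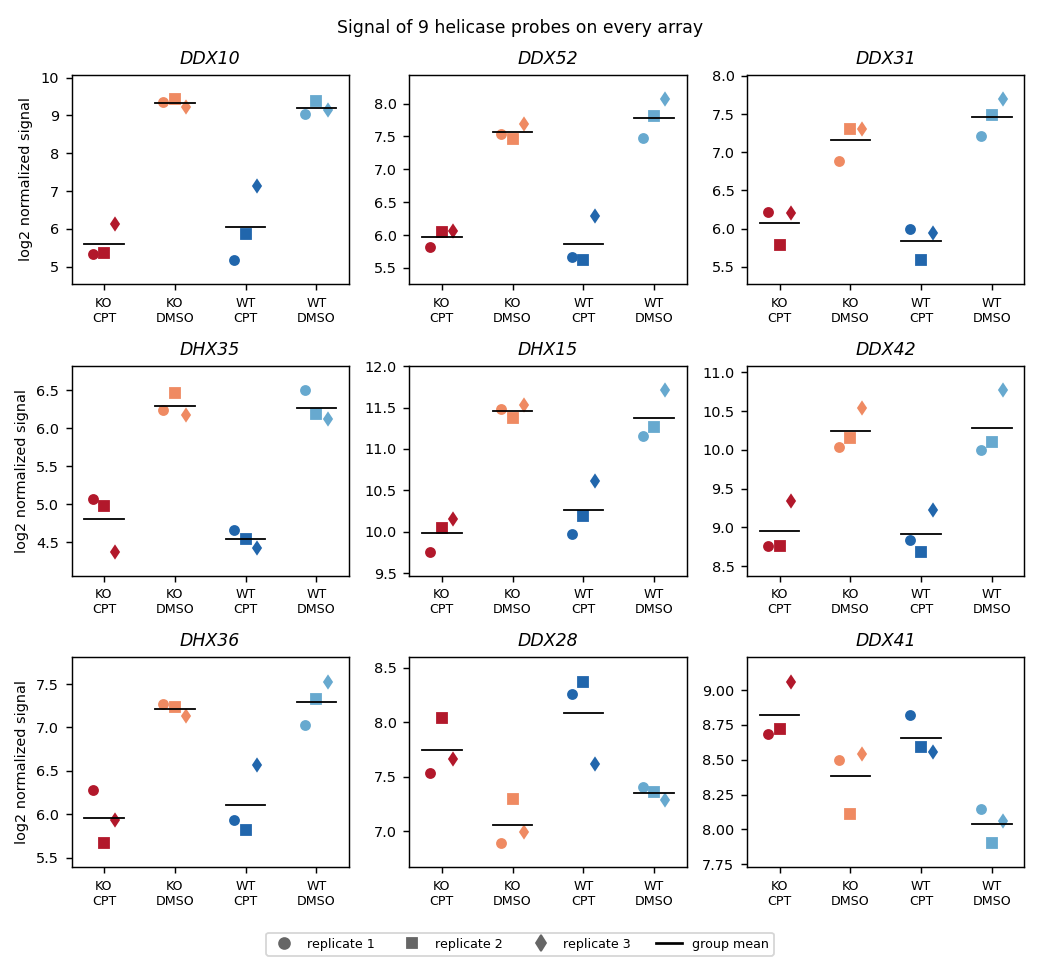
Log2 normalized signal (y axis, own scale in each panel) of 9 helicase probes on the KO CPT, KO DMSO, WT CPT and WT DMSO arrays (x axis), with 1 symbol per replicate number and the group mean as a line. In the 7 panels of genes that fell, every CPT array lies below every DMSO array of its genotype, and in the DDX28 and DDX41 panels every CPT array lies above them.

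Splicing helicases were split between falls, rises and no call: of 10 genes, 3 fell in KO cells, and 3 fell and 1 rose in WT cells (median −0.05 in KO cells and −0.24 in WT cells). With the block, 4 fell and 1 rose in KO cells, and 4 fell and 2 rose in WT cells. Over all genes, without the block, 17.8% fell and 13.7% rose in KO cells, and 18.4% fell and 12.8% rose in WT cells. With the block, 2542 of all 10464 genes fell and 2500 rose in KO cells, and 2642 fell and 2478 rose in WT cells. DHX35, found in the catalytic spliceosome, read 5.06, 4.97 and 4.37 in KO cells with CPT, against 6.24, 6.46 and 6.17 in KO cells with DMSO. In WT cells it read 4.65, 4.54 and 4.43 with CPT, against 6.50, 6.18 and 6.13 with DMSO. It was detected on 1 of 3 KO CPT arrays and on none of the WT CPT arrays, and on all DMSO arrays. DHX35 thus passed the filter only through DMSO arrays, and it is 1 of the 3 splicing falls in each genotype. The change was −1.49 ± 0.20 in KO cells (adjusted p = 0.000221). In WT cells it was a fall of at least 2.35-fold, taken against the lowest detected signal on those arrays (measured difference −1.73 ± 0.20, adjusted p = 9.14e-05).

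DHX15, which takes spent spliceosomes apart, read 9.76, 10.05 and 10.16 in KO cells with CPT, against 11.48, 11.38 and 11.53 in KO cells with DMSO. The WT arrays read 9.98, 10.19 and 10.62 with CPT, against 11.15, 11.26 and 11.71 with DMSO. It was lower on every CPT array, by −1.47 ± 0.21 in KO cells (2.77-fold, adjusted p = 0.000298) and −1.12 ± 0.21 in WT cells (2.17-fold, adjusted p = 0.00177). DDX42, which associates with the SF3B complex, read 8.77, 8.76 and 9.34 in KO cells with CPT, against 10.03, 10.15 and 10.54 in KO cells with DMSO. Its WT values were 8.84, 8.69 and 9.22 with CPT, against 9.99, 10.10 and 10.77 with DMSO. These groups did not overlap either, with −1.29 ± 0.25 in KO cells (adjusted p = 0.00231) and −1.37 ± 0.25 in WT cells (adjusted p = 0.00164).

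DDX41, a spliceosomal helicase altered in familial myeloid neoplasms, read 8.68, 8.72 and 9.06 in KO cells with CPT, against 8.50, 8.11 and 8.54 in KO cells with DMSO. In WT cells it read 8.82, 8.59 and 8.56 with CPT, against 8.15, 7.90 and 8.06 with DMSO. It was higher on every CPT array in both genotypes, and the rise was called in WT cells (0.62 ± 0.18, adjusted p = 0.0203) but not in KO cells (0.44 ± 0.18, adjusted p = 0.0802), where the block gave an adjusted p of 0.0269. The WT call ended without WT CPT replicate 1 or WT DMSO replicate 2 (adjusted p up to 0.0773) and with median scaling (0.16, adjusted p = 0.674). DHX16, which starts the first splicing step as yeast Prp2 does, had 0.20 in KO cells (adjusted p = 0.358) and 0.41 in WT cells (adjusted p = 0.0651, with the block 0.0175). DDX46, the counterpart of yeast Prp5, had −0.66 in KO cells (adjusted p = 0.0891, with the block 0.00816) and −0.62 in WT cells (adjusted p = 0.110, with the block 0.0118). The other 4, DDX23, DDX39B, DHX8 and DHX38, were not called with or without the block.

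Helicases of mRNA export, translation and decay mostly fell: of 8 genes 5 fell in KO cells (7 with the block) and 7 in WT cells, with a median of −0.78 in KO cells and −0.82 in WT cells. Both counts of 7 and the medians include DDX6, which had passed the filter only through DMSO arrays. Over all genes, 17.8% fell in KO cells and 18.4% in WT cells without the block. With the block, 2542 of all 10464 genes fell in KO cells. DHX36, which unwinds G-quadruplexes, read 6.28, 5.67 and 5.93 in KO cells with CPT, against 7.27, 7.24 and 7.13 in KO cells with DMSO. The WT arrays read 5.94, 5.82 and 6.57 with CPT, against 7.03, 7.33 and 7.53 with DMSO. All CPT arrays were below all DMSO arrays, and the change was −1.25 ± 0.23 in KO cells (2.38-fold, adjusted p = 0.00147) and −1.19 ± 0.23 in WT cells (2.28-fold, adjusted p = 0.00217). DHX34, a factor of nonsense-mediated decay, fell by 1.15 in KO cells (adjusted p = 0.000918) and by 1.18 in WT cells (adjusted p = 0.000805). DHX29, which helps ribosomes scan structured mRNA leaders, fell by 0.84 in KO cells (adjusted p = 0.00939) and by 0.66 in WT cells (adjusted p = 0.0304), and the WT call ended without WT DMSO replicate 1 or 2 or WT CPT replicate 2 or 3 (adjusted p up to 0.104).

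DDX3X, an X-linked translation initiation helicase whose Y-linked copy DDX3Y had no kept probe, averaged 9.29 ± 0.35 in KO cells with CPT and 10.05 ± 0.18 in KO cells with DMSO (SD, n = 3 each), and 9.02 ± 0.51 in WT cells with CPT and 10.08 ± 0.34 in WT cells with DMSO. The fall was 0.77 in KO cells (adjusted p = 0.0470) and 1.06 in WT cells (adjusted p = 0.0107). The WT call ended without WT CPT replicate 2 (adjusted p = 0.0514). The KO call ended when any single array was left out other than KO CPT replicate 1, WT CPT replicates 2 and 3 and WT DMSO replicates 1 and 3 (adjusted p up to 0.177). DDX6, a helicase of decapping and translational repression, was detected on none of the CPT arrays, on 1 of 3 KO DMSO arrays and on 2 of 3 WT DMSO arrays, so it lay at the edge of detection. No fold can be given for it. It was called lower in WT cells (measured difference −0.61 ± 0.21, adjusted p = 0.0414) and not in KO cells (adjusted p = 0.0965, with the block 0.0296). The WT call held only when the array left out was WT DMSO replicate 1, KO DMSO replicate 1 or KO DMSO replicate 3, and the adjusted p was up to 0.162 otherwise.

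Outside these roles, DDX28 read 7.54, 8.04 and 7.67 in KO cells with CPT, against 6.89, 7.30 and 6.99 in KO cells with DMSO. Its WT values were 8.26, 8.38 and 7.61 with CPT, against 7.41, 7.36 and 7.29 with DMSO. It was higher on every CPT array, by 0.69 ± 0.22 in KO cells (1.61-fold, adjusted p = 0.0301) and 0.73 ± 0.22 in WT cells (1.66-fold, adjusted p = 0.0233). Both calls ended with median scaling, at 0.29 in KO cells (adjusted p = 0.484) and 0.21 in WT cells (adjusted p = 0.622). The KO call also ended without KO DMSO replicate 1 or 3 or KO CPT replicate 2 or 3 (adjusted p up to 0.121), and the WT call without WT CPT replicate 1 or 2 or WT DMSO replicate 2 or 3 (adjusted p up to 0.0971). DHX30, the other mitochondrial member, had −0.16 in KO cells and −0.28 in WT cells and was not called.

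Among coregulators and other nuclear helicases, DDX5 fell in both genotypes and DDX1, part of the tRNA ligase complex, fell in WT cells (−0.50 ± 0.15, adjusted p = 0.0240), a call that ended without WT CPT replicate 1 or 2 or WT DMSO replicate 2 or 3 (adjusted p up to 0.0749). DDX1 had −0.25 in KO cells (adjusted p = 0.231), and DHX9, or RNA helicase A, was not called in either genotype. DDX11, a DNA helicase of sister chromatid cohesion with near-identical copies elsewhere in the genome, had −0.32 in KO cells and −0.18 in WT cells without a call. DHX32 read 7.90, 7.09 and 7.64 in KO cells with CPT, against 8.77, 8.77 and 8.54 in KO cells with DMSO, and 7.42, 6.97 and 7.69 in WT cells with CPT, against 8.42, 8.59 and 7.30 in WT cells with DMSO. Replicate 3 of the WT DMSO arrays lay among the CPT arrays, so the groups overlapped in WT cells only, and the change was −1.15 ± 0.32 in KO cells (adjusted p = 0.0173) and −0.74 ± 0.32 in WT cells (adjusted p = 0.0983). The KO call ended without KO DMSO replicate 1 or 2 or KO CPT replicate 2 (adjusted p up to 0.0772). DDX59 fell by 1.08 in KO cells (adjusted p = 0.00392) and by 0.71 in WT cells (adjusted p = 0.0340), where the call ended without WT CPT replicate 1 or 2 or any of the WT DMSO arrays (adjusted p up to 0.135), and DHX40 was not called.

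**Figure D3:**
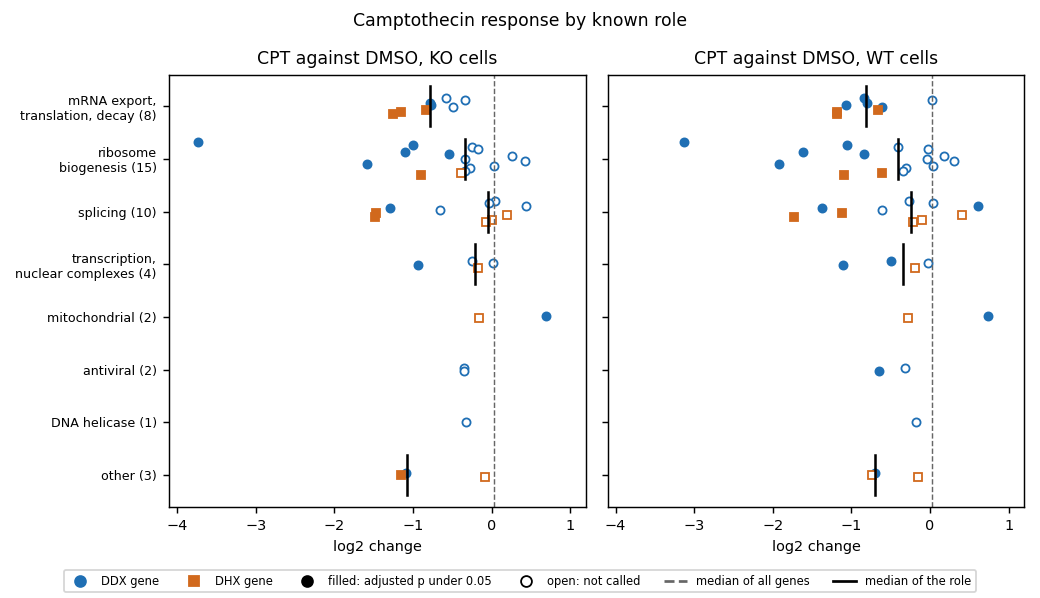
Log2 change with CPT against DMSO (x axis) of 45 helicase genes sorted by known role (rows, with the number of genes) in KO cells (left) and WT cells (right), with circles for DDX and squares for DHX genes, called genes filled, the role's median as a black bar where it has 3 or more genes and the median of all genes dashed. The bar for mRNA export, translation and decay stands at −0.78 in KO cells and −0.82 in WT cells, and that for splicing at −0.05 in KO cells and −0.24 in WT cells.

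DDX and DHX genes overlapped widely. In KO cells 10 of 31 DDX genes fell and 1 rose (3 rose with the block), against 7 falls of 14 DHX genes, and in WT cells 14 of 31 DDX genes fell and 2 rose, against 7 falls of 14 DHX genes. The 14 DDX falls in WT cells include DDX6 and DDX60L, detected on DMSO arrays alone. The 7 DHX falls of each genotype include DHX35, which had passed the filter only through DMSO arrays. Without the block, 17.8% of all genes fell and 13.7% rose in KO cells, and 18.4% fell and 12.8% rose in WT cells. With it, 2500 of all 10464 genes rose in KO cells. The median change was −0.34 for DDX and −0.61 for DHX genes in KO cells, and −0.41 for DDX and −0.63 for DHX genes in WT cells. Taken replicate by replicate, the DDX medians were −0.39, −0.48 and −0.41 and the DHX medians −0.47, −0.60 and −0.74 in KO cells. In WT cells the DDX medians were −0.36, −0.47 and −0.47 and the DHX medians −0.48, −0.87 and −0.57. The DHX median was thus the lower in each replicate, by 0.27 in KO cells and 0.22 in WT cells in the fit. Over all 65 probes, however, DDX minus DHX was −0.11 in KO cells and 0.16 in WT cells, and without WT CPT replicate 2 it was 0.05 in WT cells. With median scaling it was 0.43 in KO cells and 0.50 in WT cells, and with no detection filter −0.05 in KO cells. The sign in KO cells thus depended on how probes were counted, and no test was made of the family difference.

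In several closely related pairs 1 gene was called and the other was not, as read by different probes whose changes were not tested against each other. DDX5 and DDX17 are coregulators and microRNA processing factors that act together. DDX5 read 11.62, 11.42 and 11.65 in KO cells with CPT, against 12.43, 12.49 and 12.59 in KO cells with DMSO, and 11.15, 11.21 and 11.55 in WT cells with CPT, against 12.24, 12.50 and 12.48 in WT cells with DMSO. On this probe it fell without overlap, by 0.94 in KO cells (adjusted p = 0.0011) and 1.10 in WT cells (adjusted p = 0.000405). DDX17 read 6.38, 7.15 and 6.33 in KO cells with CPT, against 6.19, 6.81 and 6.80 in KO cells with DMSO, and 6.29, 6.62 and 6.20 in WT cells with CPT, against 6.37, 6.54 and 6.29 in WT cells with DMSO. Its groups overlapped in both genotypes, with 0.02 ± 0.24 in KO cells and −0.03 ± 0.24 in WT cells.

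DDX39A and DDX39B are near-identical proteins of mRNA export, and DDX39B also acts in splicing. DDX39A read 10.08, 10.24 and 10.47 in KO cells with CPT, against 10.78, 11.04 and 11.34 in KO cells with DMSO, and 10.26, 10.17 and 10.58 in WT cells with CPT, against 10.87, 11.01 and 11.52 in WT cells with DMSO. It fell by 0.79 in KO cells (adjusted p = 0.0159) and by 0.80 in WT cells (adjusted p = 0.0152) with no overlap, although the calls ended without KO CPT replicate 1 or KO DMSO replicate 3 (adjusted p up to 0.0713) and without WT CPT replicate 2 or WT DMSO replicate 3 (adjusted p up to 0.0620). DDX39B read 10.46, 10.49 and 10.12 in KO cells with CPT, against 10.64, 10.25 and 10.29 in KO cells with DMSO, and 10.96, 10.53 and 10.16 in WT cells with CPT, against 10.84, 10.42 and 10.28 in WT cells with DMSO. It was not called, with −0.03 ± 0.23 in KO cells and 0.04 ± 0.23 in WT cells, and the sign of so small a change turned in WT cells with median scaling (−0.14).

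DDX21 and DDX50, DDX19A and DDX19B, and DDX60 and DDX60L are neighbours on chromosomes 10, 16 and 4, with no other protein-coding gene between them in the RefSeq annotation. DDX21 read 10.29, 9.92 and 9.87 in KO cells with CPT, against 10.86, 11.01 and 11.20 in KO cells with DMSO, and 10.19, 9.91 and 10.11 in WT cells with CPT, against 10.85, 11.20 and 11.32 in WT cells with DMSO. DDX50, its nucleolar paralogue, read 7.34, 6.88 and 7.35 in KO cells with CPT, against 7.66, 7.41 and 7.49 in KO cells with DMSO, and 6.77, 6.58 and 7.87 in WT cells with CPT, against 6.96, 7.07 and 7.31 in WT cells with DMSO. DDX21 groups did not overlap, whereas DDX50 was not called at −0.33 ± 0.28 in KO cells and −0.04 ± 0.28 in WT cells, where replicate 3 was the one CPT array above its DMSO partner.

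DDX19A and DDX19B drive mRNA export at the nuclear pore. DDX19A read 6.65, 7.20 and 7.38 in KO cells with CPT, against 7.42, 7.78 and 7.75 in KO cells with DMSO, and 6.62, 7.15 and 6.75 in WT cells with CPT, against 7.37, 7.78 and 7.91 in WT cells with DMSO. It was lower without overlap in both, a fall that was called in WT cells (−0.84 ± 0.23, adjusted p = 0.0152) and not in KO cells (−0.57 ± 0.23, adjusted p = 0.0768, with the block 0.00698). The WT call ended without WT CPT replicate 1 or WT DMSO replicate 2 or 3 (adjusted p up to 0.0562). DDX19B read 7.89, 8.38 and 8.14 in KO cells with CPT, against 8.36, 8.48 and 8.58 in KO cells with DMSO, and 8.64, 8.79 and 8.70 in WT cells with CPT, against 8.73, 8.58 and 8.74 in WT cells with DMSO. Its groups overlapped in both genotypes and it was not called, at −0.34 ± 0.16 in KO cells (adjusted p = 0.135) and 0.03 ± 0.16 in WT cells (adjusted p = 0.910), and with median scaling the WT value turned to −0.40 (adjusted p = 0.125).

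DDX60 and DDX60L are interferon-induced antiviral helicases that both lay near the detection limit. DDX60L was detected on none of the CPT arrays, on 1 of 3 KO DMSO arrays and on all 3 WT DMSO arrays. Its log2 signal was 4.48, 4.43 and 4.71 in KO cells with CPT, against 5.24, 4.89 and 4.56 in KO cells with DMSO, and 4.51, 4.73 and 4.28 in WT cells with CPT, against 5.10, 5.19 and 5.18 in WT cells with DMSO. The groups overlapped in KO cells and not in WT cells. In WT cells it fell by at least 1.08-fold (measured difference −0.65 ± 0.19, adjusted p = 0.0227), a call that ended without WT CPT replicate 3 or WT DMSO replicate 2 or 3 (adjusted p up to 0.0662), and in KO cells it had −0.35 ± 0.19 (adjusted p = 0.186). DDX60 read 4.69, 4.41 and 4.43 in KO cells with CPT, against 5.12, 4.99 and 4.47 in KO cells with DMSO, and 4.96, 4.84 and 4.44 in WT cells with CPT, against 5.16, 5.26 and 4.78 in WT cells with DMSO. It overlapped in both genotypes, with −0.35 ± 0.22 in KO cells (adjusted p = 0.246) and −0.32 ± 0.22 in WT cells (adjusted p = 0.292). 

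**Figure D4:**
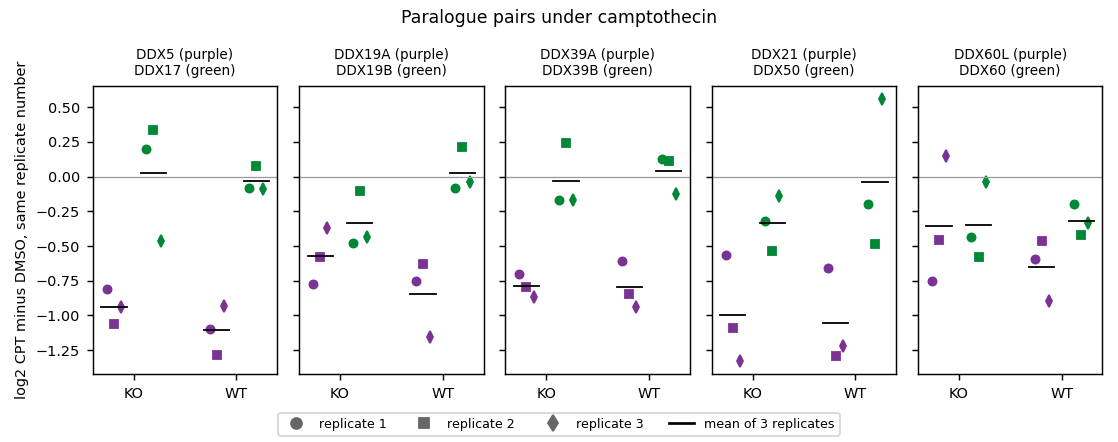
Log2 signal with CPT minus log2 signal with DMSO (y axis) of 5 paralogue pairs in KO and WT cells (x axis), between arrays of the same replicate number, with 1 symbol per replicate number and the mean as a line. The purple points of DDX5, DDX39A and DDX21 all lie below 0 in both genotypes, and the green points of DDX17, DDX39B and DDX50 fall on both sides of 0 in at least 1 genotype.

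Where a gene had several kept probes, these did not always move together. Of 16 such genes with 36 probes, all probes were called in 4 genes in KO cells and 8 in WT cells, some but not all in 5 in KO cells and 2 in WT cells, and none in 7 in KO cells and 6 in WT cells. The probes of a gene differed by more than 0.5 for 5 genes in each genotype. For DDX5 the second probe, which the platform annotation ties to a record other than a RefSeq transcript, read 7.29, 7.21 and 7.12 in KO cells with CPT, against 6.68, 6.75 and 6.67 in KO cells with DMSO. In WT cells it read 7.53, 7.24 and 6.30 with CPT, against 6.83, 6.95 and 6.16 with DMSO. It was higher on every CPT array than on its DMSO partner of the same number, without a call at 0.51 ± 0.28 in KO cells (adjusted p = 0.200) and 0.37 ± 0.28 in WT cells (adjusted p = 0.344), opposite in sign to the brighter probe.

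The second DDX52 probe was detected on all DMSO arrays and on no CPT array. It fell in WT cells by at least 1.45-fold (measured difference −0.90 ± 0.16, adjusted p = 0.00137) and was not called in KO cells (adjusted p = 0.201). The dimmer probe of DHX37 was not called in KO cells (0.00 ± 0.22, adjusted p = 0.993) and fell in WT cells (−0.74, adjusted p = 0.0256). The dimmer probe of DDX42 was also detected on no CPT array, so that it fell by at least 1.27-fold in WT cells (measured difference −1.04, adjusted p = 0.0107) and was called in KO cells with the block alone (at least 1.01-fold, adjusted p = 0.0688, with the block 0.0179). The second DHX36 probe had −0.83 in KO cells (adjusted p = 0.0554, with the block 0.0191) and fell by 1.39 in WT cells (adjusted p = 0.00468). For DDX31 the second probe fell by 1.07 in KO cells and by 1.03 in WT cells, and for DDX19A the 2 other probes had −0.27 (adjusted p = 0.349) and −0.51 in WT cells (adjusted p = 0.152, with the block 0.0295). The second probes of DHX37, DHX36 and DDX31 were each detected on 1 of 3 WT CPT arrays, and that of DDX31 on 1 of 3 KO CPT arrays. The DDX19A probe at −0.27 was detected on no WT CPT array. The sizes of these changes thus rest in part on signals below detection. For DDX51, counterpart of yeast Dbp6, the brighter probe read 7.57, 8.97 and 9.35 in KO cells with CPT, against 7.32, 8.55 and 8.72 in KO cells with DMSO, with replicate 1 more than 1 unit below the other arrays in every group. Its second probe had −0.29 in KO cells (adjusted p = 0.424) and −0.62 in WT cells (adjusted p = 0.0853, with the block 0.0208), against 0.43 in KO cells and 0.31 in WT cells for the brighter probe.

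**Figure D5:**
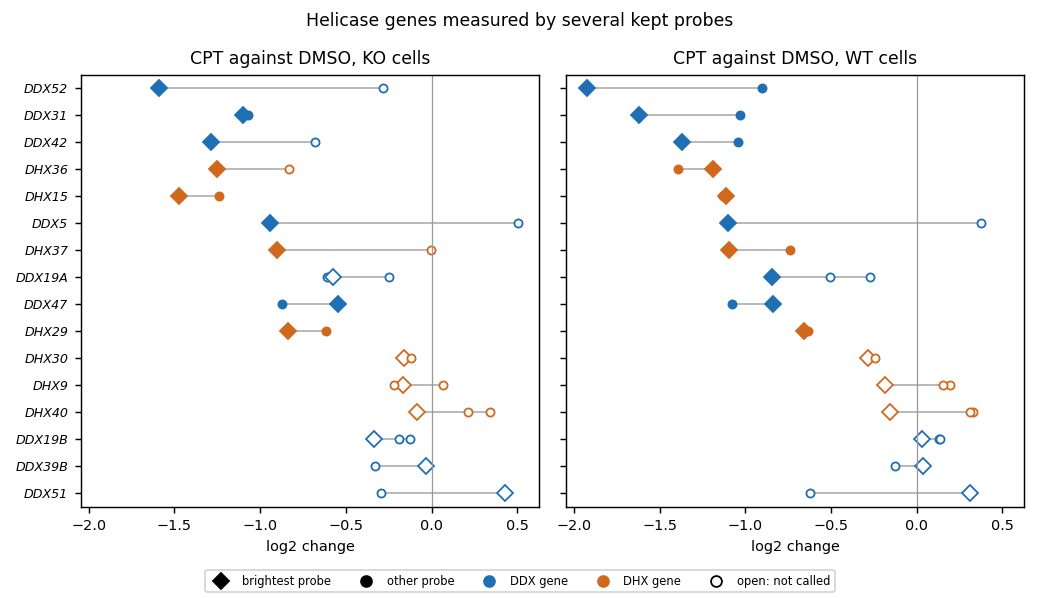
Log2 change with CPT against DMSO (x axis) of every kept probe of the 16 helicase genes with several probes (rows, ordered by the change of the brightest probe in WT cells), in KO cells (left) and WT cells (right), with diamonds for the brightest probe, circles for the others and called probes filled. The 2 DDX5 probes lie at −0.94 and 0.51 in KO cells and at −1.10 and 0.37 in WT cells.

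KO and WT cells were also compared within each treatment, where few genes of any kind were called. Under DMSO 0 of 45 genes were called KO against WT, where 0.956% of all genes were, and 1 had an unadjusted p under 0.05, against 9.7% of all genes. Under CPT 0 of 45 were called, where 0.717% of all genes were, and 1 had an unadjusted p under 0.05, against 10.3% of all genes. At these shares fewer than 1 call would fall among 45 genes, so the counts of 0 say nothing particular about helicases. With the replicate block 0 helicase genes were called under DMSO and 1 under CPT, beside 4.23% and 4.09% of all genes. KO and WT arrays did not overlap for 8 helicase genes under DMSO (18.4% of all genes) and for 4 under CPT (13.5% of all genes). The median difference was −0.07 under DMSO and 0.03 under CPT, beside 0.01 and 0.02 over all genes.

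The gene under DMSO was DDX47, which read 10.83, 10.75 and 10.72 in KO cells, against 11.08, 11.22 and 11.32 in WT cells. All KO arrays were the lower (−0.44 ± 0.19, adjusted p = 0.497), and its second probe had −0.58 ± 0.22 (adjusted p = 0.371). The second DDX52 probe was also lower in KO cells under DMSO without overlap (−0.51 ± 0.16, unadjusted p = 0.00731, adjusted p = 0.237). The brighter DDX52 probe had −0.22 ± 0.21 (adjusted p = 0.899) with overlap. The gene under CPT was DDX19B, which read 7.89, 8.38 and 8.14 in KO cells, against 8.64, 8.79 and 8.70 in WT cells. It was lower in KO cells without overlap (−0.58 ± 0.16, adjusted p = 0.168), and with the replicate block it was the 1 helicase gene called (adjusted p = 0.0431). Its other probes had −0.50 ± 0.22 (adjusted p = 0.477) and −0.24 ± 0.22 (adjusted p = 0.852). DDX17, DDX39B and DDX50 were likewise not called in either setting.

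The difference between the CPT responses of KO and WT cells, tested as an interaction with the replicate block, was called for 0 of 45 helicase genes and for 0% of all genes. No helicase gene had an unadjusted p under 0.05 on its brightest probe, against 4.85% of all genes. KO minus WT was −0.61 for DDX10 (95% interval −1.60 to 0.38), 0.53 for DDX31 (−0.02 to 1.07), −0.36 for DHX15 (−0.79 to 0.08) and −0.04 for DDX28 (−0.56 to 0.48). These intervals include 0 and are wide relative to the responses of DDX31 and DDX28. Among dimmer probes, the second of DHX37 had 0.74 (0.09 to 1.38, unadjusted p = 0.0288, adjusted p = 0.932). That DHX37 probe was detected on 2 of 3 KO CPT arrays and 1 of 3 WT CPT arrays. Its difference thus rests in part on signals below detection. The second DDX52 probe had 0.62, but it was below detection on all CPT arrays, so the size of that difference cannot be read.

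Partners and relatives of these enzymes also held genes that fell with CPT, and they were not tested against the DDX and DHX genes. Of 15 RNA helicases with other names, 4 fell and 1 rose in KO cells and 5 fell in WT cells, a share of 33.3% called in each genotype, near the 31.4% and 31.2% of all genes. Among them MTREX, the exosome helicase, fell by 1.73 in KO cells (adjusted p = 5.32e-05) and by 1.49 in WT cells (adjusted p = 0.000153), and SNRNP200, the spliceosomal Brr2 helicase, rose in KO cells (0.60 ± 0.16, adjusted p = 0.0128). Of 12 cofactors of DEAD-box helicases 3 fell in KO cells and 4 in WT cells (6 fell and 1 rose with the block), including LSM14A, a DDX6 partner, at −1.04 in KO cells and −1.25 in WT cells. The share called without the block was 25% in KO cells and 33.3% in WT cells for these cofactors. With the block, 2642 of all 10464 genes fell and 2478 rose in WT cells. Of 14 G-patch proteins 6 fell in KO cells (42.9%) and 4 in WT cells (28.6%), including RBM5, a partner of DHX15, at −1.17 in KO cells and −1.27 in WT cells, and PINX1, a nucleolar DHX15 partner, at −1.07 in KO cells and −1.18 in WT cells. The medians were −0.21 in KO cells and −0.23 in WT cells for the helicases with other names, −0.26 in KO cells and −0.41 in WT cells for the DEAD-box cofactors, and −0.54 in KO cells and −0.29 in WT cells for the G-patch proteins.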

How the data were processed

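RNA from HCT116 cells was measured on 12 Illumina HumanHT-12 v4 beadchips. The authors deposited, per array, bead-summary intensities with detection p-values from GenomeStudio (version not given in the sources used here), both as unscaled signals and as background-subtracted, normalized intensities. The normalized intensities had been scaled separately for replicate 1 and for replicates 2 and 3, so the unscaled signals were used. They were background-corrected with nec from the detection p-values (offset 16), quantile-normalized and put on a log2 scale in R 4.3.3 with limma 3.58.1. Probes with a detection p under 0.01 on at least 3 arrays and exactly 1 gene in the platform annotation were kept (13735 of 47300), and 3529 detected probes without a single gene were left out. lmFit and eBayes gave two-sided tests over all kept probes with Benjamini-Hochberg adjustment, called at an adjusted p under 0.05. The 4 comparisons had no block (8 residual degrees of freedom), and the difference in response had the replicate number as a block (6). A gene was given by its brightest probe. Same-numbered arrays deviated together (r 0.258 to 0.686 over 18 pairs, against −0.583 to 0.030 over 36 other pairs), so the numbers were taken to pair the arrays in the fits with a block. The 4 comparisons without a block left this pairing out, and the number of helicase genes called with the block is given for each. Whether replicates are separate cultures is not in the labels, and the p-values may thus reflect technical spread alone. Genes given array by array were the 6 called members with the largest rise and the 6 with the largest fall in each comparison, 5 paralogue pairs, and probes of 1 gene that differed by more than 0.5. DHX32 and DDX47 were added after their values were seen. The members, roles and cofactor lists were chosen with earlier results of these data known. "At least" folds set the brighter group's mean against the lowest detected signal on the other arrays, or the probe's own signal where that was higher. The fitting code was tested on simulated data.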

Additional observations from a re-analysis of the deposited data

How the results depend on the processing

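The counts here are of helicase probes (22 called with CPT in KO cells and 31 in WT cells). With the authors' normalized values 12 were called in KO cells and 15 in WT cells, beside 1472 and 1480 of all probes. Leaving out 1 array gave 17 to 23 in KO cells and 21 to 31 in WT cells, and 0 for the other comparisons. With the replicate block 1 probe, of DDX19B, was called KO against WT under CPT. For the difference in response, the methods' paired t-test gave 4 probes at an unadjusted p under 0.05 (2 up and 2 down, beside 1135 of all probes) and 0 after Benjamini-Hochberg. The other alternatives kept each count within 1.5 times.

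DDX minus DHX in the median change with CPT was 0.271 in KO cells and 0.223 in WT cells, and became 0.432 in KO cells and 0.498 in WT cells with median scaling, −0.047 in KO cells with no detection filter and −0.113 in KO cells over all kept probes. Leaving out 1 array gave 0.184 to 0.292 in KO cells and 0.051 to 0.308 in WT cells.

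The sign turned for paralogues that were not called. With replicates 2 and 3 alone the change was −0.064 for DDX17 and 0.037 for DDX39B in KO cells, and −0.005 for DDX39B and 0.035 for DDX50 in WT cells. With median scaling it was −0.365 for DDX17 in KO cells, and −0.139 for DDX39B and −0.397 for DDX19B in WT cells. Leaving out 1 array gave −0.24 to 0.166 for DDX17 and −0.103 to 0.089 for DDX39B in KO cells, and −0.155 to 0.052 for DDX17, −0.021 to 0.063 for DDX19B, −0.168 to 0.234 for DDX39B and −0.439 to 0.203 for DDX50 in WT cells. The cause was not tested in any of these cases.

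Of the 18 helicase genes called in KO cells and the 23 in WT cells, the authors' values ended 8 and 12 calls, replicates 2 and 3 alone 5 and 7, no detection filter 4 and 2, median scaling 2 and 2, and no background correction 0 and 2, while the block ended none. The calls of DDX28 ended in both genotypes with median scaling and with replicates 2 and 3 alone. Those of DDX3X, DDX47 and DHX32 in KO cells ended with replicates 2 and 3 alone and with no detection filter, and those of DDX6 and DDX59 in WT cells under the same settings. The split of members by protein motif was not run, since no protein table was used here. With 3 arrays a group the precision is limited, and dim probes such as those of DDX6, DDX60 and DDX60L lay near the detection limit.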
